A study of Saccharomyces cerevisiae with 24 samples.

Results

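The strains described here are the 10 haploid yeast deletion mutants that lack a factor of mitochondrial fusion (FZO1 YBR179C, MGM1 YOR211C, UGO1 YDR470C), fission (DNM1 YLL001W, FIS1 YIL065C, MDV1 YJL112W, CAF4 YKR036C) or anchoring and bud retention (NUM1 YDR150W, MDM36 YPR083W, MMR1 YLR190W). They were taken by gene name, as all barcode probes on the array annotated to these 10 open reading frames, which gave 24 of 14129 barcode probes and 10 of 5526 strains. The study pooled the MATα deletion collection in the BY4742 background, in which 2 short DNA barcodes, an uptag and a downtag, flank the cassette that replaces the deleted gene, and transformed the pool with pYX223-MDM33, a multicopy plasmid that expresses MDM33 from the galactose-inducible GAL1/10 promoter, or with the empty vector pYX223. Transformants were collected from glucose plates, and each transformation was then plated on selective medium with 2% galactose for 4 days and with 2% glucose for 2 days. Barcodes amplified from genomic DNA were hybridized to an array. This gave 4 groups of 2 experiments each: MDM33 plasmid on galactose, empty vector on galactose, MDM33 plasmid on glucose and empty vector on glucose.

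Mitochondria of budding yeast form a branched network whose shape is set by opposing fusion and fission. Fusion needs a GTPase in the outer membrane, a dynamin-related GTPase in the inner membrane and a protein that links them. Cells without fusion have fragmented mitochondria and lose mitochondrial DNA, so that they cannot respire. Fission needs a dynamin-related GTPase that is recruited to the outer membrane by a receptor and its adaptors, and cells without it keep a closed net of tubules. A cortical anchor holds part of the network in the mother cell, while a myosin-binding factor keeps another part in the bud. Mdm33 is an inner membrane protein whose loss leaves cells with large ring-shaped mitochondria and whose overexpression stops growth.

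A strain's value is the mean of its uptag and downtag signals, in units of the scaled array intensity. The total of every dye channel was scaled by the authors to nearly the same sum, so a value follows the strain's share of its pool and not its number of cells. Signals of different barcodes have no common scale, and levels were compared only within a strain. A strain was counted as detected in an experiment when at least 1 of its tags exceeded the 99th percentile of the barcodes of the other, unlabelled tag. This limit was between 786 and 3339 units in the channels of the MDM33 plasmid on galactose, against 185 to 601, 176 to 837 and 263 to 732 units in the channels of the empty vector on galactose, the MDM33 plasmid on glucose and the empty vector on glucose. The MDM33 galactose pools were thus read over a higher background. They also differed most between experiments, with a median absolute log2 difference of 1.71 over the 4258 tested strains, against 0.76, 0.65 and 0.66 in the other 3 groups in the same order. In experiment 1 the galactose pools carried Cy3 and the glucose pools Cy5, so that sugar and dye cannot be told apart there. Experiment 2 had both dyes for every pool.

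**Figure D1:**
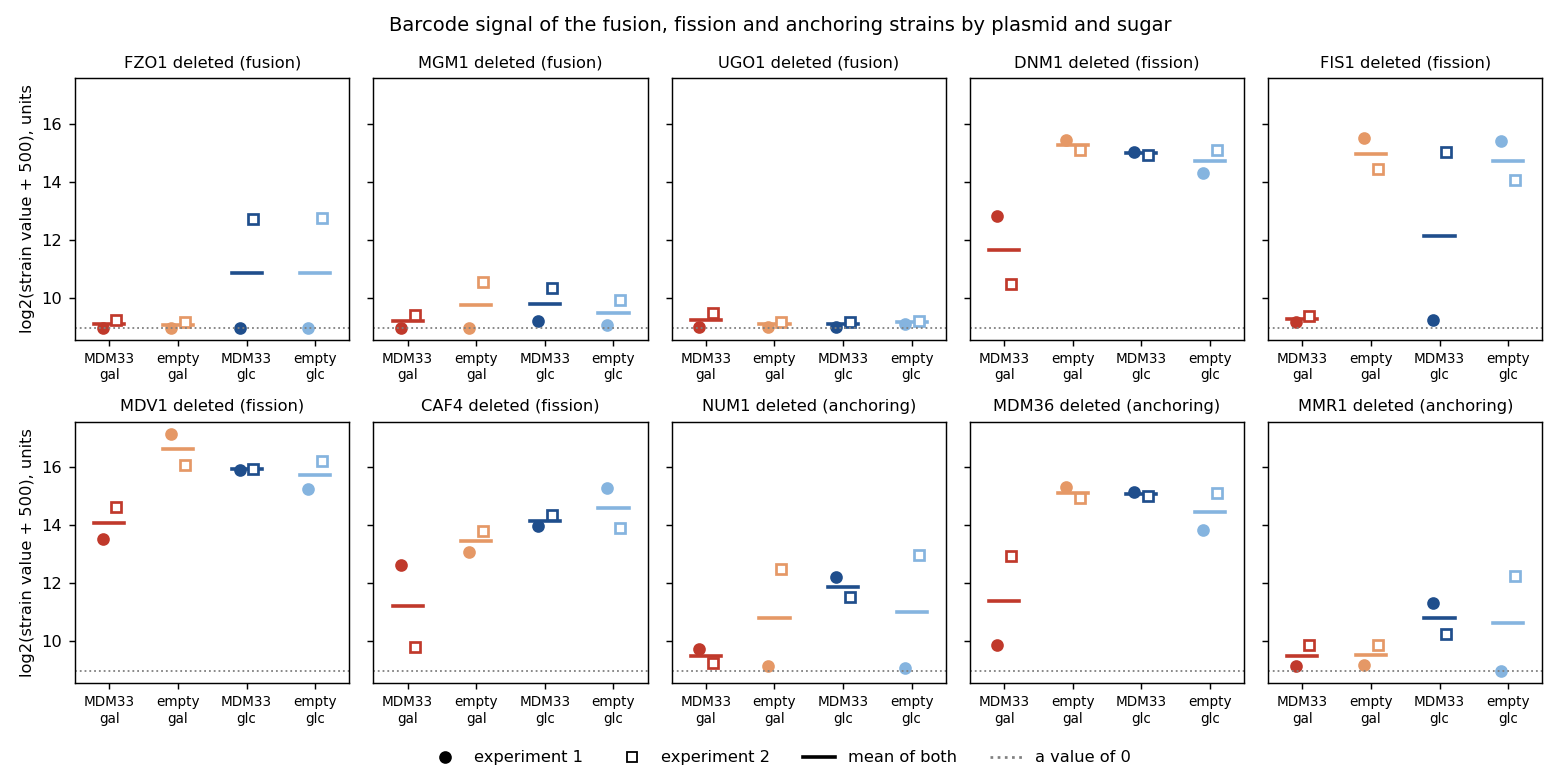
Each panel is 1 deletion strain and shows log2 of its value plus 500 units in the MDM33 plasmid and empty vector pools on galactose (gal) and glucose (glc). Filled circles are experiment 1, open squares experiment 2, bars the mean of both, and the dotted line a value of 0. The strains lacking DNM1, FIS1, MDV1, CAF4 or MDM36 lie lower in both MDM33 galactose pools than in both empty vector galactose pools. So do 49.4% of all 4258 tested strains. The UGO1 strain stays near the dotted line throughout.

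Of the 10 strains, 2 were detected in both experiments with the MDM33 plasmid on galactose, the strains lacking MDV1 and MDM36. Of all 5526 strains, 41.0% were detected in both experiments of that group. The count was 5 of the 10 for the empty vector on galactose (66.2% of all strains), 6 for the MDM33 plasmid on glucose (68.3%) and 5 for the empty vector on glucose (66.8%). None of the 3 fusion strains was detected in both experiments of any group. The 4 fission strains were all detected in both experiments with the empty vector on either sugar. Under MDM33 on galactose, 1 of these 4 was detected in both experiments and 2 in a single one.

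Each strain was then followed through its own transformation, which allows the galactose plate to be set against the glucose plate of the same transformants. In 11 of the 40 pairs of a strain and a transformation the strain was not detected on glucose, and in all 11 it was not detected on galactose either. No strain of the 10 was detected on galactose alone. For all strains, the share detected on galactose among those absent on glucose was 3.62% and 1.89% with the MDM33 plasmid and 10.7% and 4.52% with the empty vector, in experiments 1 and 2. Detection on both glucose plates and on no galactose plate was found for 2 of the 10 strains under the MDM33 plasmid, lacking NUM1 and MMR1 (7.89% of all strains), and for 0 of the 10 under the empty vector (0.742%). For Δmmr1 the downtag on glucose in experiment 2, at 1417 units, was itself below the galactose limit of 1512 units.

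Fzo1 is the mitofusin, the GTPase that tethers and fuses outer membranes. The Δfzo1 strain had 0 and 103 units with the MDM33 plasmid and 0 and 66.3 with the empty vector on galactose, against 0 and 6250 with the MDM33 plasmid and 0 and 6391 with the empty vector on glucose, in experiments 1 and 2. It read 0 in all 4 pools of experiment 1. In experiment 2 it was well above the limit on glucose with either plasmid and under it on galactose with either plasmid. Its galactose signal being under the limit, only an upper bound of its share of the glucose signal can be given, as the limit of the tag over that tag's glucose signal. In experiment 2 this bound was 16.6% with the MDM33 plasmid, above the median of 14.0% of all strains detected on glucose, and 3.503% with the empty vector, where that median was 98.96%. The signal came from the uptag, and the downtag never exceeded 245 units as the mean of its dyes.

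Both plasmids gave a low galactose signal for Δfzo1, and the difference between them was 0.0458 on the log2 scale (SE 1.54, limma adjusted p = 0.989). The difference between galactose and glucose was -1.74 (SE 1.54, limma adjusted p = 0.443) with the MDM33 plasmid and -1.80 (SE 1.54, limma adjusted p = 1.00) with the empty vector, and neither passed the test. Without experiment 2 of the MDM33 plasmid on glucose the MDM33 difference was 0.14, and without experiment 2 of the empty vector on glucose the empty vector difference was 0.0899. Each of them rested on experiment 2 on glucose, where the signal was 51.1 times the limit with the MDM33 plasmid and 32.0 times with the empty vector. Only through these pools did Δfzo1 enter the test, which required a mean signal above the limit. Its negative differences between galactose and glucose were thus largely fixed by that filter.

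Mgm1, the dynamin-related GTPase of the inner membrane, and Ugo1, which connects Fzo1 and Mgm1, completed the fusion set. The Δmgm1 strain had 0 and 178 units with the MDM33 plasmid and 0 and 984 with the empty vector on galactose, against 92.2 and 788 with the MDM33 plasmid and 27.1 and 462 with the empty vector on glucose. It passed the limit only in experiment 2 and there in all pools but the MDM33 galactose pool, reaching 2.24 times the limit with the empty vector on galactose, 1.86 times with the MDM33 plasmid on glucose and 2.15 times with the empty vector on glucose. The reading above the limit with the empty vector on galactose came from different dyes for its tags, with 2547 units in Cy5 and 68.1 in Cy3 for the uptag and 70.7 in Cy5 and 1248 in Cy3 for the downtag. The Δugo1 strain had between 7.01 and 204 units over the 8 pools and was not detected in any of them. Mean signals of 0.833 times the limit for Δmgm1 and 0.152 times for Δugo1 kept both out of the test, which required a mean above the limit, and left 8 of the 10 strains tested.

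**Figure D2:**
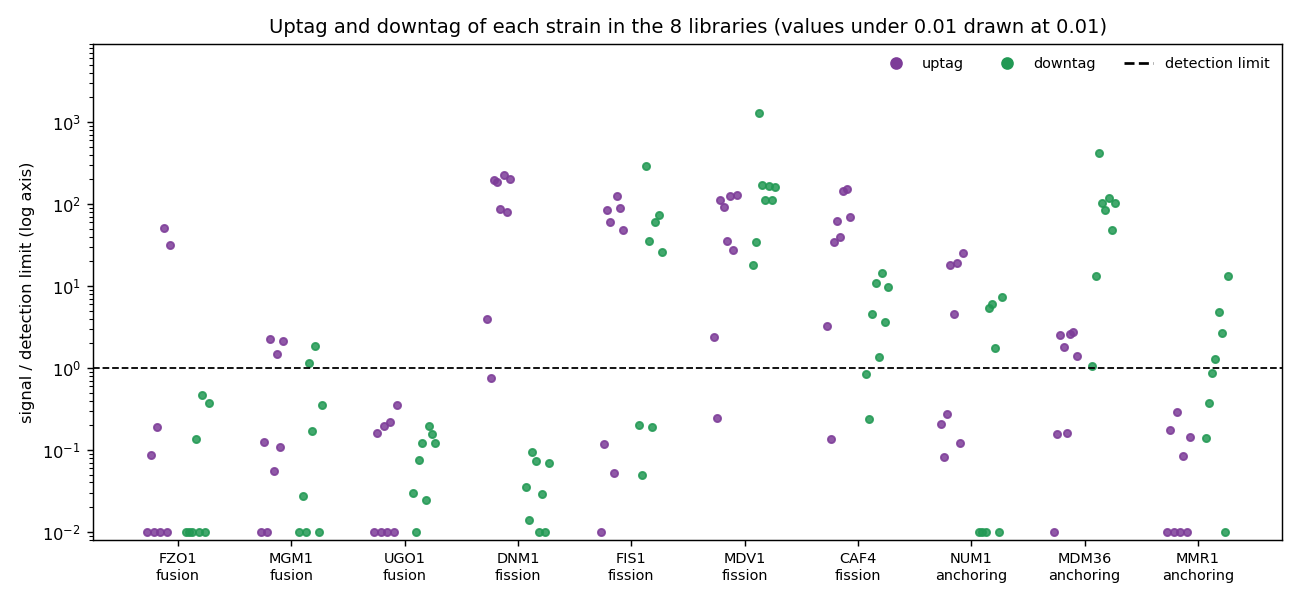
Signal of the uptag and the downtag of each strain over the detection limit, on a log axis, with 1 point for each of the 8 pools and a dashed line at the limit. Both tags report the FIS1, MDV1 and NUM1 strains, whereas the DNM1 and FZO1 strains are read from the uptag and the MDM36 and MMR1 strains mainly from the downtag, and no point of the UGO1 strain passes the limit.

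Dnm1 is the dynamin-related GTPase that constricts mitochondria. The Δdnm1 strain had 6622 and 921 units with the MDM33 plasmid on galactose and 43891 and 34620 units with the empty vector on galactose. On glucose it had 32770 and 30579 units with the MDM33 plasmid and 19657 and 34573 with the empty vector. The 2 MDM33 galactose values lay below all 6 others. In 49.4% of all tested strains both values lay below both empty vector galactose values. The share of strains below all 6 others was not counted. In experiment 1 the MDM33 galactose signal was 3.96 times the limit and in experiment 2 it was 0.756 times, where the uptag gave 3628 units in Cy3 and 0 in Cy5. The value of experiment 1 was 15.1% of the empty vector galactose value, where the median of all strains was 34.6%. In experiment 2 the upper bound from the mean of the dyes was 2.94%, where the median was 14.6%. This bound holds for that mean alone, since the Cy3 signal of 3628 units exceeded its own limit of 2401 units. The difference between plasmids on galactose was -3.63 on the log2 scale (SE 0.95, 95% interval -5.84 to -1.43, limma adjusted p = 0.0517), and did not pass the threshold of 0.05. This strain rested on its uptag, since its downtag gave at most 43.6 units as the mean of its dyes.

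Fis1 is the tail-anchored receptor of the outer membrane to which the division machinery binds. The Δfis1 strain had 79.2 and 167 units with the MDM33 plasmid on galactose and 45571 and 21757 units with the empty vector on galactose. On glucose it had 99.96 and 32568 units with the MDM33 plasmid and 42831 and 16443 with the empty vector. It was under the limit in both MDM33 galactose pools, and also on glucose in the MDM33 transformation of experiment 1, where the downtag gave 161 units and the uptag 38.6. In experiment 2 it was under the limit only with the MDM33 plasmid on galactose, and its share of the glucose signal there was at most 6.24%. Of the empty vector galactose signal the MDM33 galactose signal was at most 1.46% in experiment 1 and 8.98% in experiment 2. Between plasmids on galactose Δfis1 differed by -5.69 (SE 1.70, 95% interval -9.64 to -1.73, limma adjusted p = 0.0674) and did not pass the test. As neither MDM33 galactose value was above the limit, the size of this difference depends on the 500 units added before log2, and the same holds for the differences of Δfzo1, Δnum1 and Δmmr1. Both tags gave the same pattern.

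Mdv1 and Caf4 are related adaptors that join Fis1 to Dnm1. The Δmdv1 strain had 11106 and 24400 units with the MDM33 plasmid and 144642 and 67326 with the empty vector on galactose, against 60130 and 62293 with the MDM33 plasmid and 37883 and 75398 with the empty vector on glucose. It stayed above the limit everywhere, and the MDM33 galactose values again lay below all others. They were 7.68% and 36.2% of the empty vector galactose values. The medians of all strains were 34.6% and 14.6%, so only the value of experiment 1 was below the median. In 49.4% of all tested strains both values lay below both empty vector galactose values. Its tags differed in experiment 2 under MDM33 on galactose, where the downtag gave 48260 units and the uptag 540 units, 0.243 times the limit. In the empty vector galactose pool of the same experiment the downtag gave 99714 units and the uptag 34938. Between plasmids on galactose the strain differed by -2.55 (SE 0.84, limma adjusted p = 0.0835).

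The Δcaf4 strain had 5768 and 379 units with the MDM33 plasmid on galactose and 8089 and 13764 with the empty vector on galactose. On glucose it had 15334 and 20286 units with the MDM33 plasmid and 38940 and 14842 with the empty vector. Its experiments differed widely under MDM33 on galactose, with the experiment 1 value 3.25 times the limit and the experiment 2 value under it, at 71.3% and at most 9.65% of the empty vector galactose values. The medians of all strains were 34.6% and 14.6%, so the value of experiment 1 was above the median. On galactose the plasmids differed by -2.24 (SE 1.09, limma adjusted p = 0.191). With the empty vector, the galactose value of this strain was 20.8% of its glucose value in experiment 1 and 92.7% in experiment 2.

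Num1 is the cortical protein that anchors mitochondria in the mother cell. The Δnum1 strain had 349 and 98.7 units with the MDM33 plasmid and 60.7 and 5178 with the empty vector on galactose, against 4236 and 2454 with the MDM33 plasmid and 30.1 and 7444 with the empty vector on glucose. In the empty vector transformation of experiment 1 it was under the limit on either sugar. Where it was detected on glucose, its galactose value was at most 15.6% and 51.0% of the glucose value with the MDM33 plasmid and 69.6% with the empty vector in experiment 2. On galactose the plasmids differed by -1.32 (SE 1.51, limma adjusted p = 0.598), and without experiment 2 of the empty vector on galactose it was 0.35.

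Another strain carried a deletion at the same locus. YDR149C is a dubious open reading frame that overlaps NUM1. The Δydr149c strain had 155 and 263 units with the MDM33 plasmid on galactose and 3699 and 3418 with the empty vector on galactose. On glucose it had 1813 and 7388 units with the MDM33 plasmid and 4901 and 9811 with the empty vector. It was read by its downtag, was under the limit in both MDM33 galactose pools and above it in the other 6 pools, including the empty vector pools of experiment 1 in which Δnum1 was missing.

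Mdm36 promotes the attachment of mitochondria to Num1. The Δmdm36 strain had 418 and 7184 units with the MDM33 plasmid on galactose and 39701 and 30377 with the empty vector on galactose. On glucose it had 35212 and 32032 units with the MDM33 plasmid and 14134 and 34141 with the empty vector. The MDM33 galactose values lay below all 6 others, at 1.05% and 23.7% of the empty vector galactose values, and the lower one was 1.06 times the limit. The medians of all strains were 34.6% and 14.6%, so only the value of experiment 1 was below the median. In 49.4% of all tested strains both values lay below both empty vector galactose values. The downtag of experiment 2 under MDM33 on galactose gave 5136 units in Cy3 and 22847 in Cy5. The difference between plasmids on galactose was -3.73 (SE 1.104, 95% interval -6.30 to -1.16, limma adjusted p = 0.0665). The array carried an original and a resequenced version of its downtag, which averaged 48930 and 21216 units over the 12 channels, and the brighter original one was used.

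Mmr1 binds the class V myosin Myo2 and retains mitochondria in the bud. The Δmmr1 strain had 55.2 and 423 units with the MDM33 plasmid and 80.2 and 429 with the empty vector on galactose, against 2021 and 717 with the MDM33 plasmid and 0 and 4361 with the empty vector on glucose. The galactose values were close to each other under either plasmid, and only the empty vector pool of experiment 2 passed the limit, at 1.30 times its level. With the MDM33 plasmid the galactose value was at most 19.4% of the glucose value in experiment 1. The bound was 107% in experiment 2, which therefore could not show a drop. With the empty vector the galactose value was 9.84% of the glucose value in experiment 2. On galactose the plasmids differed by -0.0359 (SE 1.16, 95% interval -2.73 to 2.65, limma adjusted p = 0.988).

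Over the 8 tested strains, 0 passed the limma test between plasmids on galactose in either direction after Benjamini-Hochberg adjustment over all 4258 tested strains, of which 9.72% were called lower and 0.258% higher. At an unadjusted p under 0.05, 4 of the 8 were lower, lacking DNM1, FIS1, MDV1 and MDM36, against 32.9% of all tested strains, and 0 were higher (1.39%). Of these, Δfis1 was under the limit on glucose too in the MDM33 transformation of experiment 1. A drop on galactose could thus be read for it only in experiment 2, here and in the counts and range below. Both MDM33 values lay below both empty vector values in 5 of the 8, the 4 fission strains and Δmdm36 (49.4% of all tested strains), and above both in 0 (5.89%). The median difference of the 8 was -2.39, with -1.55 for all tested strains. By role, the median was -3.09 for the 4 fission strains (range -5.69 to -2.24) and -1.32 for the 3 anchoring strains (range -3.73 to -0.0359), and the single tested fusion strain stood at 0.0458. On galactose Δfzo1 was under the limit in every pool. Δnum1 and Δmmr1 passed it only with the empty vector in experiment 2. The 4 fission strains were detected in both empty vector galactose pools, so role cannot be told apart from signal level in these medians.

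Leaving out a single MDM33 galactose experiment changed these calls. Without experiment 1 of that group, Δdnm1 (-4.80, limma adjusted p = 0.00823) and Δcaf4 (-3.65, limma adjusted p = 0.0200) passed, both on an experiment 2 value under the limit. Calls over all strains then numbered 1544 lower (36.3%) and 250 higher (5.87%), in place of 414 lower and 11 higher. Without experiment 2, Δmdv1 (-3.10, limma adjusted p = 0.0490) and Δmdm36 (-5.26, limma adjusted p = 0.0348) passed, with 686 lower (16.1%) and 85 higher (2.0%) over all strains. The difference was negative for Δdnm1, Δfis1, Δmdv1, Δcaf4 and Δmdm36 under every alternative run, whereas the sign for Δfzo1, Δnum1 and Δmmr1 changed. Scaling each channel by its 75th percentile in place of its total put the median of all tested strains at -0.78 in place of -1.55, or at 0.74 when the percentile was taken over the labelled barcodes, so each difference is a difference relative to the rest of the pool.

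**Figure D3:**
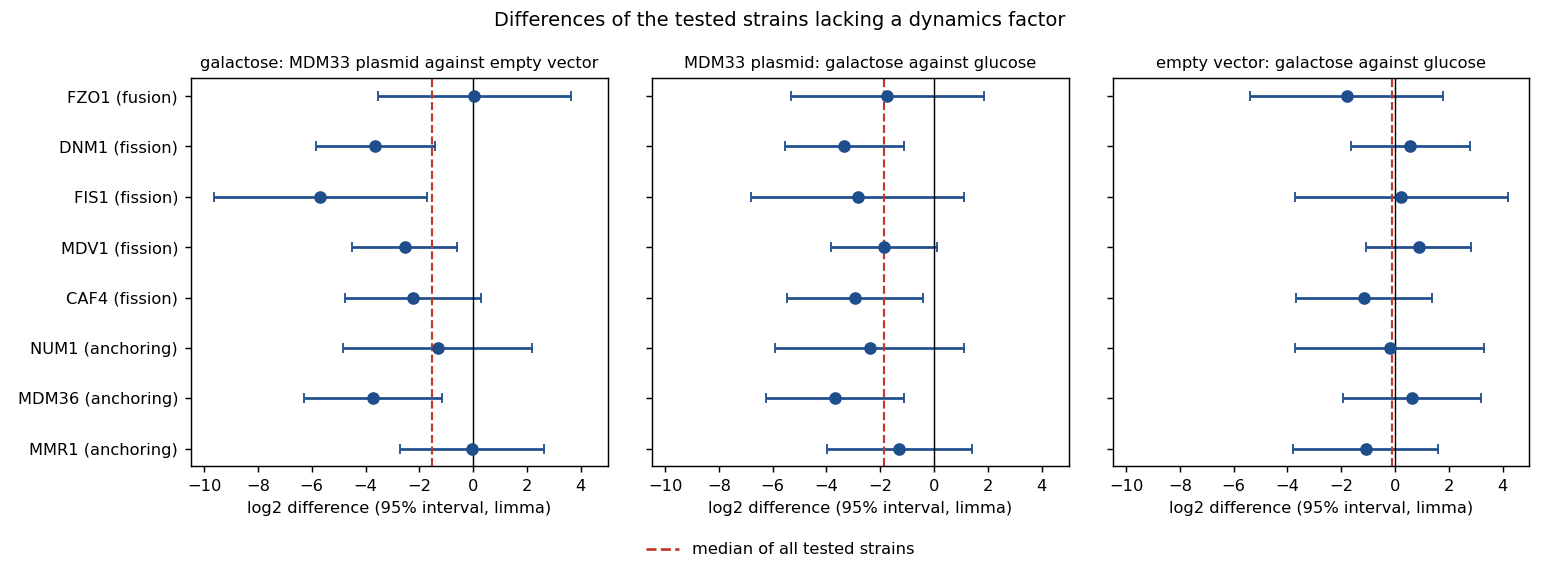
Log2 differences of the 8 tested strains with 95% intervals from limma, for the MDM33 plasmid against the empty vector on galactose, and for galactose against glucose with the MDM33 plasmid and with the empty vector. The dashed line marks the median of all 4258 tested strains, at -1.55, -1.88 and -0.0983. In the comparisons of galactose with glucose all 8 intervals cross that line.

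Galactose was also set against glucose within each plasmid. With the MDM33 plasmid 0 of the 8 strains passed the limma test in either direction, as did 0.0% of all tested strains. At an unadjusted p under 0.05, 3 of the 8 were lower on galactose, against 34.9% of all tested strains, and 0 were higher (1.69%). These were Δdnm1 (-3.34, limma adjusted p = 0.0674), Δmdm36 (-3.68, limma adjusted p = 0.0710) and Δcaf4 (-2.95, limma adjusted p = 0.0978). Both galactose values lay below both glucose values in 6 of the 8 strains, all but Δfzo1 and Δfis1 (57.0% of all tested strains), and above them in 0 (4.32%). Of these 6, Δnum1 and Δmmr1 had both galactose values under the limit. The median of the 8 was -2.62, with -1.88 for all. Δfzo1 and Δmmr1 passed the filter on mean signal through their glucose values. Their negative differences, which enter this median, were thus largely fixed by the filter. Without experiment 1 of the MDM33 plasmid on galactose, Δdnm1 (-4.50, limma adjusted p = 0.00932) and Δcaf4 (-4.37, limma adjusted p = 0.0136) passed, with 36.9% of all tested strains called lower and 5.05% higher in that fit. Without experiment 2 Δmdm36 did (-5.21, limma adjusted p = 0.0379), with 12.8% called lower and 2.21% higher.

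With the empty vector, 0 of the 8 strains passed the limma test between galactose and glucose, and 0 had an unadjusted p under 0.05, against 0.0% passing in either direction and 1.41% lower and 0.47% higher at that p among all tested strains. The median of the 8 was 0.0196, with -0.0983 for all, and the same limit of the filter holds for Δfzo1 and Δmmr1 in it. Both galactose values lay above both glucose values for Δdnm1 alone (13.7% of all tested strains) and below them for Δcaf4 alone (17.0%). In experiment 2 the galactose values of Δdnm1, Δfis1, Δmdv1, Δcaf4 and Δmdm36 were between 89.0% and 132% of the glucose values, and those of Δmmr1 and Δnum1 were 9.84% and 69.6%, with at most 3.503% for Δfzo1.

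**Figure D4:**
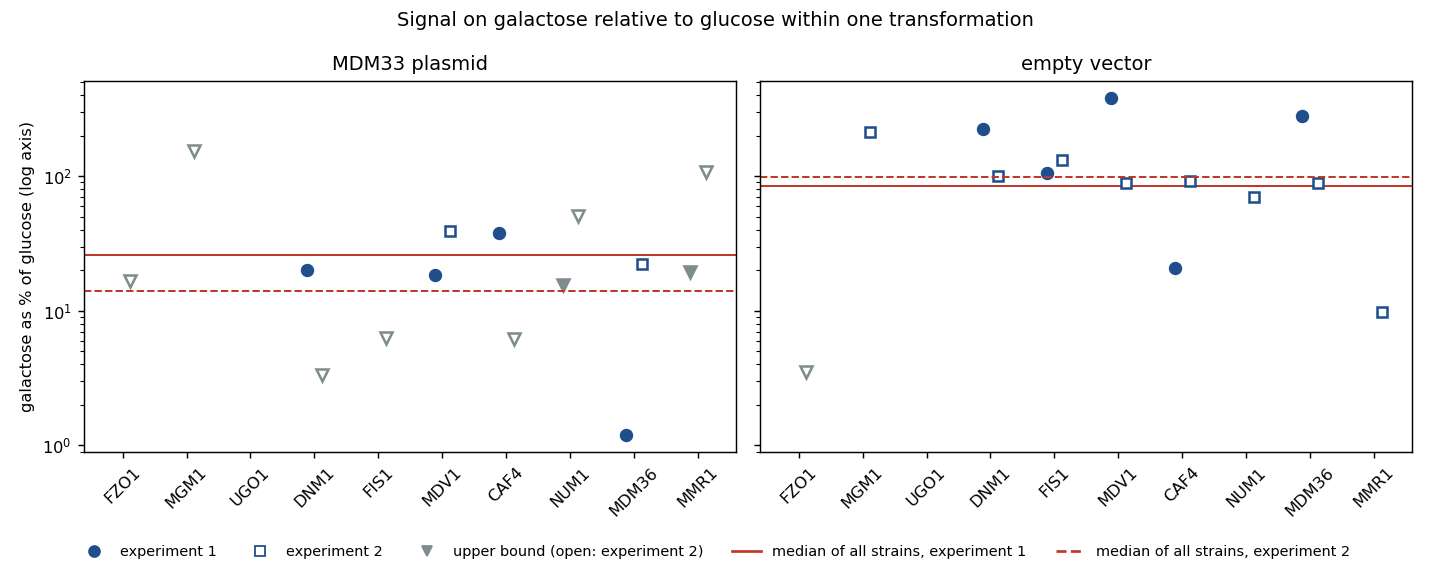
Galactose value of each strain as a percentage of its glucose value in the same transformation, on a log axis, for the MDM33 plasmid and the empty vector. Points are given where the strain was detected on glucose, triangles are upper bounds where it was under the limit on galactose, and lines mark the median of all strains detected on glucose in experiments 1 and 2, at 25.8% and 14.0% with the MDM33 plasmid and 84.1% and 98.96% with the empty vector. The bound for the FZO1 strain is 16.6% with the MDM33 plasmid and 3.503% with the empty vector.

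On glucose, where the GAL promoter is repressed, 0 of the 8 strains passed the limma test between plasmids and 0 had an unadjusted p under 0.05, against 0.0% passing in either direction and 0.446% lower and 0.587% higher at that p among all tested strains. Both MDM33 values lay above both empty vector values in 0 of the 8 (11.1% of all tested strains) and below them in 0 (13.2%). The differences were between -2.60 for Δfis1 and 0.87 for Δnum1, and for each of these strains 1 glucose pool of experiment 1 was under the limit. The test of whether the plasmid difference itself differed between sugars called 0 of the 8, as it did 0.0% of all tested strains, and at an unadjusted p under 0.05 2 were lower, against 17.5% of all tested strains, and none on the higher side (0.634%). These were Δmdm36 (-4.33, SE 1.56, limma adjusted p = 0.241) and Δdnm1 (-3.91, SE 1.34, limma adjusted p = 0.237). Without experiment 1 of the MDM33 plasmid on galactose Δdnm1 passed this test (-5.07, limma adjusted p = 0.0285), with 19.5% of all tested strains called lower and 1.32% higher in that fit.

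The 8 tested strains varied in different ways over the 8 pools. The highest Pearson correlations of log2 values between 2 of them were 0.93 for Δmdv1 and Δmdm36, 0.83 for Δcaf4 and Δdnm1 and 0.82 for Δnum1 and Δmmr1, each over 8 values that share the same 8 pools. The strains of the 2 fission adaptors, Δmdv1 and Δcaf4, correlated at 0.39. The strains most similar to a member among all tested strains were Δpxl1 to Δmdm36 (0.999), Δrga1 to Δfzo1 (0.998) and Δvcx1 to Δdnm1 (0.997). For Δmmr1 the closest strain, Δcox23, reached 0.902.

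Other genes of mitochondrial shape and inheritance were taken from a fixed list of 21, of which 20 were on the array and 14 were tested. Between plasmids on galactose, 1 of the 14 passed the limma test and was lower, and 0 were higher, against 9.72% and 0.258% of all tested strains. The median was -2.07, with -1.55 for all tested strains. The strain that passed lacks MDM32, which encodes an inner membrane protein needed for normal mitochondrial shape. It had 5306 and 4693 units with the MDM33 plasmid on galactose and 66077 and 44743 with the empty vector on galactose, and 46141 and 51631 units with the MDM33 plasmid and 25299 and 50018 with the empty vector on glucose. Its difference was -3.32 on the log2 scale (SE 0.76, limma adjusted p = 0.0437), and its 2 MDM33 galactose values were closer together than those of Δdnm1, which had the more negative difference but a larger SE. With array weights, uptags alone, either scaling by the 75th percentile, or without an empty vector or glucose pool, 0 of all tested strains were called lower, so Δmdm32 was not called. In the other 4 comparisons 0 of the 14 passed.

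A list of 10 genes for the upkeep of mitochondrial DNA, all on the array, was followed beside Δfzo1 because cells without fusion lose that DNA. The number of these 10 strains detected in both experiments was 0 for the MDM33 plasmid (41.0% of all strains) and 0 for the empty vector (66.2%) on galactose, and 3 for the MDM33 plasmid (68.3%) and 2 for the empty vector (66.8%) on glucose. The Δmip1 strain, which lacks the mitochondrial DNA polymerase, had 29.0 and 319 units with the MDM33 plasmid and 70.5 and 506 with the empty vector on galactose, against 2684 and 25439 with the MDM33 plasmid and 4137 and 12623 with the empty vector on glucose. Like Δfzo1 in experiment 2, it was higher on glucose than on galactose with either plasmid. This also held in experiment 1, where Δfzo1 read 0 in all pools. The Δmtf1 strain, which lacks the specificity factor of the mitochondrial RNA polymerase, had 355 and 192 units with the MDM33 plasmid and 0 and 184 with the empty vector on galactose, against 3395 and 19306 with the MDM33 plasmid and 84.0 and 14411 with the empty vector on glucose.

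For Δabf2, which lacks the protein that packages mitochondrial DNA, the values were 432 and 162, 0 and 28.4, 12201 and 11530, and 0 and 1910 units in the same order of groups. The Δmhr1 strain, which lacks a factor of mitochondrial DNA recombination, departed from the others with 34366 units in the MDM33 galactose pool of experiment 1, against 64.2 units with the empty vector on galactose in that experiment, and 196 and 106 units in experiment 2. Of the list, 5 strains were tested and 0 were called by limma in any comparison. Their median difference between galactose and glucose was -3.51 with the MDM33 plasmid and -2.33 with the empty vector, with -1.88 and -0.0983 for all tested strains, and their median between plasmids on galactose was 0.39. Apart from Δmhr1, these strains passed the filter on mean signal through their glucose values. Negative medians between galactose and glucose were thus largely fixed by the filter.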

How the data were processed

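The authors deposited background-corrected spot intensity values of 24 dye channels, in which uptags and downtags were labelled separately and each channel had been scaled to a nearly constant total. The channels of the series table were used, since its columns carry sample names, and 24 further per-sample columns of the other table were not used because their numbering did not match the sample titles. For each tag the brightest of the original and resequenced probes was kept, dyes were averaged, and then the tags. There are no read counts, so precision rests on 2 experiments per group.

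Strains whose mean signal exceeded the limit over the 8 pools (4258 of 5526) were tested on log2(value + 500) with limma 3.58.1 in R 4.3.3 on 4 group means with 4 residual degrees of freedom, with Benjamini-Hochberg adjustment over all of them and a threshold of 0.05. Each strain had a single spread for all 4 groups, although the MDM33 galactose pools differed most between experiments. The SEs and adjusted p-values of comparisons with that group may therefore be too small. Tables were handled in Python 3.11.15 with pandas 2.3.3. The fit was run on simulated data with a single spread per strain for all groups, which cannot check the SEs of the MDM33 galactose group. Fold changes of dim strains are understated by the added 500 units. Gene symbols came from a RefSeq table of the S288C genome, in which 440 strains had no match, and no coordinates or barcode sequences are given.

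The members and lists were chosen with earlier results of these data known. All 10 strains are named, and of the lists each strain that passed the test, or otherwise up to 4 of those tested with the highest mean. Each transformation was plated on both sugars, so that experiment numbers pair sugars within a plasmid. Deviations of same-numbered pools from their group means correlated at 0.15 between sugars with the MDM33 plasmid and 0.26 with the empty vector, and across plasmids at 0.064 on galactose and 0.32 on glucose, 0.21 between empty vector galactose and MDM33 glucose and 0.062 between MDM33 galactose and empty vector glucose. Alternatives covered the added constant, scaling, the filter, tags, probes, dyes, array weights, the replicate block and leaving out each pool.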

Additional observations from a re-analysis of the deposited data

How the results depend on the processing

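No member passed in any comparison under the setting reported. Between plasmids on galactose the number called was 2 with 2000 units added (Δdnm1 and Δmdm36, with 15.3% of all tested strains called lower). It was 1 without the filter on dim strains (Δdnm1, 12.5% lower) and with the mean of a tag's probes (Δdnm1, 10.7% lower). With experiment 2 from Cy3 alone (Δmdm36, 8.85% lower) or with the tags averaged after log2 (Δmdv1, 14.4% lower) it was also 1. Between sugars with the MDM33 plasmid it was 1 with 2000 units added (Δdnm1, with 13.4% of all tested strains called lower) and between 0 and 2 on leaving out a pool (up to 36.9% lower), and for the interaction between 0 and 1 (up to 19.5% lower). The replicate block, over all groups or within each plasmid, called 0 of the 8 members in every comparison it could be fitted to, and array weights did too. Requiring both tags above the limit left 0 members detected in both experiments with the MDM33 plasmid on galactose and 3 with the MDM33 plasmid on glucose, and uptags alone left 0 with the MDM33 plasmid on galactose.

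The sign changed in 19 cases among the settings that kept every pool. With 2000 units added Δmmr1 stood at -0.11 between plasmids on glucose and 0.0994 for the interaction. With the 75th percentile of all probes, the differences were 0.43 for Δmmr1 between plasmids on galactose, 0.18 for Δmdv1 between sugars with the MDM33 plasmid, 0.0509 for Δnum1 between sugars with the empty vector and -0.0761 for Δmdv1 between plasmids on glucose. Taking this percentile over labelled barcodes gave 0.0240 for Δnum1 and 1.26 for Δmmr1 between plasmids on galactose, 0.43 for Δmdv1 and 0.22 for Δmmr1 between sugars with the MDM33 plasmid, and 0.0504 for Δcaf4 and 1.14 for Δmmr1 in the interaction. Uptags alone gave -0.71 for Δmdm36 on glucose, and averaging after log2 gave 0.0184 for Δmmr1 on galactose and -0.0374 for Δmdm36 on glucose. Cy3 alone gave 0.20 for Δmmr1 on galactose, 0.32 for Δfzo1 on glucose and -0.18 for its interaction, and Cy5 alone -0.0688 for Δfzo1 on galactose. The cause of these changes was not tested.

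Leaving out 1 pool at a time turned the sign in 31 cases. Between plasmids on galactose the range was -0.0899 to 0.18 for Δfzo1, -2.99 to 0.35 for Δnum1 and -0.40 to 0.33 for Δmmr1. Between plasmids on glucose it was -1.91 to 1.88 for Δfzo1, -0.13 to 0.67 for Δdnm1, -5.50 to 0.29 for Δfis1, -0.30 to 0.68 for Δmdv1, -1.12 to 0.24 for Δcaf4, -1.09 to 2.82 for Δnum1, -0.0234 to 1.22 for Δmdm36 and -1.47 to 1.81 for Δmmr1. Between sugars it was -3.62 to 0.14 for Δfzo1 and -5.73 to 0.0510 for Δfis1 with the MDM33 plasmid, and -3.69 to 0.0899 for Δfzo1, -0.44 to 0.92 for Δfis1, -2.15 to 1.75 for Δnum1 and -2.73 to 0.55 for Δmmr1 with the empty vector. For the interaction it was -1.83 to 1.95 for Δfzo1 and -1.84 to 1.44 for Δmmr1. A lone pool was assumed to vary like the other groups.

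Over all tested strains, calls between plasmids on galactose were 11 higher and 414 lower as reported. They became 2 and 73 with 100 units added, 21 and 651 with 2000 units, 2 and 0 with the 75th percentile of all probes, 14 and 0 with that of the labelled barcodes, 19 and 689 without the filter, 0 and 0 with uptags alone, 5 and 506 with downtags alone, 7 and 174 with Cy5 alone, 15 and 612 with averaging after log2, 0 and 0 with array weights, 7 and 211 with the replicate block and 6 and 256 with the brighter tag, the last of these chosen after seeing the data. Leaving out an empty vector or glucose pool gave 0 and 0. The series table served throughout, so the other table was not run as an alternative. What limits these results is the 2 experiments per group and, for Δugo1 and Δmgm1, signals near or under the limit, where a lower value on galactose was not detectable.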
